A study of Cavia porcellus with 8 samples.

Results

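11β-hydroxysteroid dehydrogenase (11βHSD), which the study lists as the type 1 enzyme, was followed through 2 of the 13269 features of the array, AF188005 and AY535424. Whether other features also belong to the gene could not be checked. AF188005 was taken by its accession. AY535424 was the only 1 of 13268 other features whose average with AF188005, on the signals as deposited, gave all 3 group averages listed for 11βHSD to the last printed digit. It was therefore chosen by its group values, so that those values are given as a description with no test. Gene expression had been measured in whole cochleae of male Hartley guinea pigs on 1-color arrays, with 1 array per animal. The normal electrode group (NOR, n = 3) had a silicone dummy electrode without wires or contacts, inserted through a small hole near the round window of the left cochlea, and the dexamethasone group (DEX, n = 3) had the same kind of dummy with dexamethasone mixed into its silicone. Both were taken 7 days after insertion. The control group (CNT, n = 2) had neither surgery nor electrode, so effects of the surgery and of the electrode itself cannot be told apart. The age of the animals is 7 weeks at the start in the series' design text and 8 weeks in the sample labels, and no genetic modification is named for any group.

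11βHSD type 1 is an enzyme of the endoplasmic reticulum that, with NADPH as its cofactor, mainly reduces inactive 11-keto steroids to active glucocorticoids, such as cortisone to cortisol. It thereby raises the active hormone inside a cell without a change in the circulating level. Type 2 works in the opposite direction and inactivates cortisol. Type 1 is known from liver, fat, fibroblasts and macrophages, and in stromal cells it can be induced by inflammatory cytokines and by glucocorticoids. Dexamethasone is given in the active form and binds the glucocorticoid receptor directly. The comparisons here ask how the transcript differed 7 days after insertion, and whether it differed between the electrodes. No source used here holds the sequence of either feature, and none is printed.

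The 8 arrays fell into 2 sets, found from the signals and named by neither the labels nor the study. In set A were replicates 1 and 2 of both electrode groups. In set B were the replicate 3 animals of these groups together with the controls. Arrays of the same set shared between 246 and 384 identical signal values, and arrays of different sets shared between 30 and 52. Median signals lay between 394.8 and 404.6 in set A and between 308 and 325 in set B. The log2 signals were therefore quantile-normalized over all arrays, and every value below is a normalized signal, or a difference of its log2, unless stated otherwise. All controls were in set B, so NOR and DEX values are also compared with CNT within that set. Markers of cochlear cell types could not be looked up, since the reference gene table held 0 of the accessions of the features. For the same reason 16 genes of the glucocorticoid pathway, among them the receptor NR3C1, the type 2 enzyme HSD11B2, the NADPH-supplying H6PD and the glucocorticoid-induced FKBP5 and TSC22D3, have no values here: 0 could be paired with a feature. In whole-cochlea RNA, a change in the number of cells that express a gene and a change in its RNA per cell cannot be told apart.

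The signal of AF188005 was 46.4 and 44.2 in the 2 CNT animals. With the normal electrode it was 104, 127 and 113.01 in replicates 1 to 3. With the dexamethasone-eluting electrode it was 155, 169.6 and 116. All 6 implanted animals lay above both controls, as they did for 2502 of the 13269 features, while DEX replicate 3 lay inside the range of the NOR animals and the other two DEX animals lay above it. AF188005 was brighter than 30.20% to 30.72% of the features on the control arrays and than 37.4% to 42.1% on the arrays of implanted animals, so it was measured in the lower part of the signal range.

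The signal of AY535424 was 33.7 and 27.5 in CNT. In NOR it was 65.1, 75.8 and 80.1, and in DEX it was 74.1, 80.5 and 72.7. Again all implanted animals lay above both controls, but here NOR and DEX covered nearly the same range. The average of both features, which is the form in which the study lists the gene, was 40.06 and 35.8 in CNT, 84.6, 101.6 and 96.6 in NOR and 114.6, 125 and 94.3 in DEX. The average kept the DEX animals of replicates 1 and 2 above all NOR animals, as AF188005 did, and put DEX replicate 3 among the NOR animals.

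**Figure D1:**
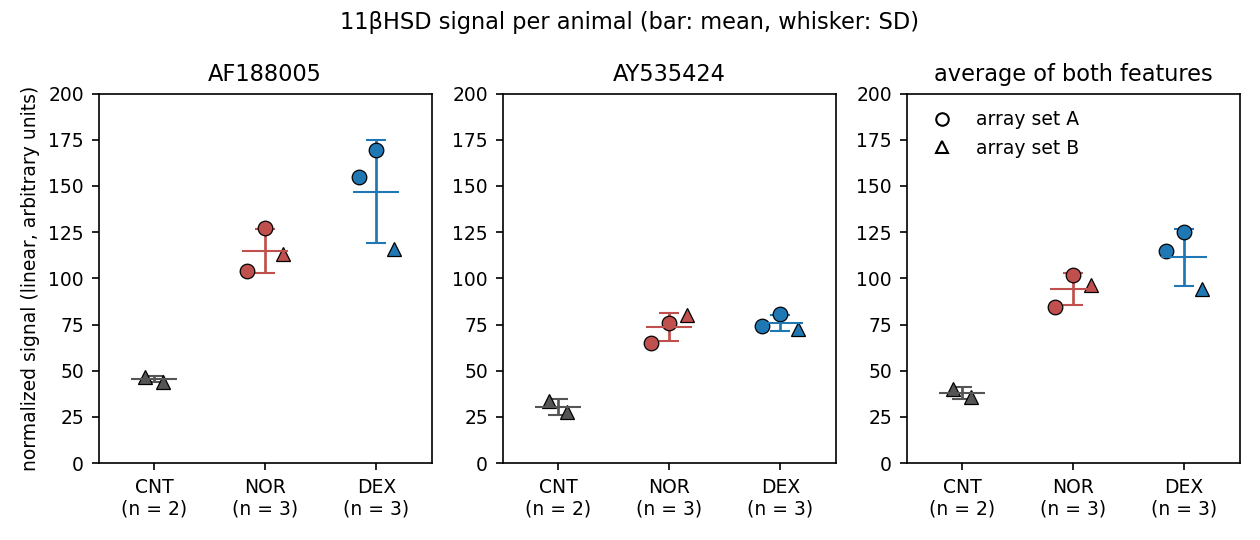
Normalized signal (linear, arbitrary units) of AF188005, AY535424 and their average in each animal of the CNT, NOR and DEX groups. Points are animals, circles are array set A and triangles array set B, horizontal bars are means and whiskers are SD. Both features lie below 50 in CNT and above 65 in every implanted animal, and the 2 DEX animals of set A, at 155 and 169.6, stand above the rest for AF188005.

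Both features of 11βHSD had higher signals with the normal electrode than in controls. The mean signal of AF188005 in NOR was 114.8 ± 11.7 (SD, n = 3), against 45.3 ± 1.60 (SD, n = 2) in CNT. The log2 fold change was 1.34, a rise of 2.53-fold (SE 0.18, limma adjusted p = 0.0103 over all features). Of all features, 1.34% were called higher in NOR at 2-fold or more and an adjusted p under 0.05. This background moved with single animals, from 178 features to 95 when NOR replicate 2 was left out, and to 49 and 40 when CNT replicate 1 or CNT replicate 2 was. The study put the gene on its list for this difference on these same arrays, so that the call is not independent evidence. A 2-sided exact permutation test, which doubled the smaller tail, gave p = 0.2, the smallest value it allows for 3 animals against 2. The animals did not overlap, which was so, in the same direction, for 25.5% of all features. The call rested on both controls: the adjusted p was 0.0764 without CNT replicate 1 and 0.0669 without CNT replicate 2.

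AY535424 differed by nearly the same amount. Its mean was 73.7 ± 7.73 (SD, n = 3) in NOR against 30.6 ± 4.38 (SD, n = 2) for the controls, a log2 difference of 1.27 or 2.41-fold. For the average of both features the log2 difference was 1.31 or 2.48-fold. Within array set B, where NOR replicate 3 can be set against both controls, the differences were 1.32 for AF188005, 1.40 for AY535424 and 1.35 for the average. These values rest on a single NOR animal and have no test. With a term for the array set in the model, a choice made after the values were seen, the log2 fold change of AF188005 was 1.17 (limma adjusted p = 0.00875), and 2.0% of all features were called higher.

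With the dexamethasone-eluting electrode, 11βHSD was also above the controls. AF188005 had a mean of 147 ± 27.8 (SD, n = 3) in DEX, and its log2 fold change against CNT was 1.68, or 3.20-fold (SE 0.18, limma adjusted p = 0.00798). Of all features, 0.957% were called higher in this comparison. All DEX animals lay above both controls, which was so for 3368 of the 13269 features. The called background fell from 127 features to 12 without CNT replicate 1, to 17 without CNT replicate 2, to 48 without DEX replicate 1 and to 54 without DEX replicate 2, and was 214 with the replicate number as a block. With a term for the array set the log2 fold change was 1.51 (limma adjusted p = 0.00651), and 1.38% of all features were called higher. The adjusted p of AF188005 was 0.0614 without CNT replicate 1 and 0.0562 without CNT replicate 2, and the exact permutation test again gave its smallest possible p, 0.2. The same controls served for NOR and DEX, so the 2 comparisons are not separate pieces of evidence. AY535424 had a mean of 75.8 ± 4.15 (SD, n = 3) in DEX and a log2 difference of 1.31 from CNT, and the average of both features one of 1.54. Within array set B, DEX replicate 3 was above the controls by 1.36 for AF188005, 1.26 for AY535424 and 1.31 for the average.

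Between the electrodes, 11βHSD showed no difference past the threshold. The log2 fold change of AF188005 in DEX against NOR was 0.34, or 1.27-fold (SE 0.16, limma adjusted p = 1, unadjusted p = 0.0632), with a 95% interval from -0.02 to 0.71. The interval reaches from about no change to a higher level in DEX. At every replicate number the DEX animal lay above the NOR animal, at replicate 3 by only 0.036. The labels pair no animals by number, and how many of all features did the same was not counted. With the replicate number as a block the interval was 0.02 to 0.66 (limma adjusted p = 0.968). With a term for the array set it was 0.04 to 0.65 (limma adjusted p = 0.926). Both intervals lay just above 0, and neither fit called the feature. In these fits 641 and 696 of the 13269 features, in the same order, had an unadjusted p under 0.05. The DEX and NOR animals overlapped, whereas 2.64% of all features had every DEX animal above every NOR animal. The 2-sided exact permutation test gave p = 0.2, where 0.1 is the smallest value for 3 animals against 3. In this comparison limma called 0% of the features, with 2.48% at an unadjusted p under 0.05, and array weights gave 3 called features, AF188005 not among them (adjusted p = 0.180). The test named in the study's methods called 0 after Benjamini-Hochberg adjustment. AY535424 differed by 0.04 on the log2 scale, or 1.03-fold, and the average by 0.23, or 1.18-fold. The study classed genes as further up-regulated where the level was higher in DEX by 25% or more. Its own ratio for 11βHSD, from averaged signals of the whole gene, was under this limit. By the log2 fold change of normalized signals, an unlike measure, AF188005 alone was just past the limit, as were 3.4% of all features. It was under the limit without NOR replicate 1 (log2 fold change 0.27), without DEX replicate 1 (0.29) and without DEX replicate 2 (0.23), and in array set B alone (0.036). Over all animals AY535424 and the average did not reach the limit. The average was past it in array set A alone (1.29-fold) and without DEX replicate 3 (log2 fold change 0.35).

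The DEX-NOR difference of AF188005 was 0.49 in array set A and 0.036 in set B, and set B held 1 animal per electrode. In set A the 2 DEX animals were 0.49 higher than the 2 NOR animals for AF188005, or 1.41-fold, without overlap (unadjusted p = 0.00774, limma adjusted p = 1 in a model with a mean for each set and electrode). Among all features, 14.5% had both DEX animals of set A above both NOR animals, and 2.72% were higher by 25% or more. The lone DEX and NOR animals of set B give no spread of their own, so whether the sets differed could not be settled. A fit that assumes these animals to vary like the others gave a difference between the sets of 0.46 (SE 0.24, limma adjusted p = 0.541). For AY535424 the DEX-NOR differences were 0.14 in set A, with overlapping animals, and -0.14 in set B. For the average they were 0.37 and -0.035. Leaving out DEX replicate 3 brought the log2 fold change of AF188005 over all animals to 0.50 (unadjusted p = 0.00567, limma adjusted p = 0.997), and leaving out DEX replicate 2 brought it to 0.23.

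The 2 features differed from the controls by similar amounts in NOR. Their relation can be followed in each animal as the log2 ratio of AF188005 to AY535424, in which only the change from group to group is meaningful. The ratio was 0.46 and 0.68 in CNT, and 0.68, 0.75 and 0.50 in NOR. In DEX it was 1.06, 1.08 and 0.67. The mean ratio was 0.57 ± 0.16 (SD, n = 2) for the controls and 0.64 ± 0.13 (SD, n = 3) for the normal electrode. It was 0.94 ± 0.23 (SD, n = 3) for the dexamethasone-eluting electrode. DEX replicates 1 and 2 lay above all other animals, and DEX replicate 3 lay among the NOR and CNT animals. Because AY535424 was found through its group values, this ratio was not tested, and the sources used here do not say which part of the transcript each feature covers.

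The feature whose pattern over the 8 arrays was most like that of AF188005 was L04985, the feature of CCL2 (monocyte chemoattractant protein-1, the chemokine that draws monocytes into tissue). Pearson's r was 0.985 and Spearman's rho 0.929, across 8 arrays that share the contrast between implanted and control animals and both array sets. Among all features, 2.29% had an r of 0.9 or more. Over the 6 implanted animals alone r was 0.905 for CCL2. With the signals as deposited CCL2 ranked 2 of all features. Its signal was 246 and 201 in CNT, 841, 1547 and 1281 in NOR and 2004, 2136 and 832 in DEX. DEX replicates 1 and 2 were again the highest, but DEX replicate 3 was below all 3 NOR animals, so that the DEX-NOR difference of CCL2 was 0.86 in set A and -0.62 in set B. The next most like feature was EL938192, which has no gene name in the sources used here (r = 0.982). Its signal ranged from 474 to 616 in NOR and from 530 to 624 in DEX, and was 313 and 292 in CNT. Among the genes of the study's lists, the ones next to CCL2 were the Fc-gamma receptor feature GPIFCGRB3 (r = 0.968), whose product binds antibody-coated particles on phagocytes, and the interleukin-15 receptor alpha chain IL15Ra (r = 0.967). AY535424 itself was at 0.959 over the 8 arrays and at 0.562 over the implanted animals. Most of these ranks depended on the scaling. With the signals as deposited EL938192 moved from rank 2 to 10, GPIFCGRB3 from 18 to 249 and AY535424 from 28 to 175, and IL15Ra moved from 22 to 18.

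**Figure D2:**
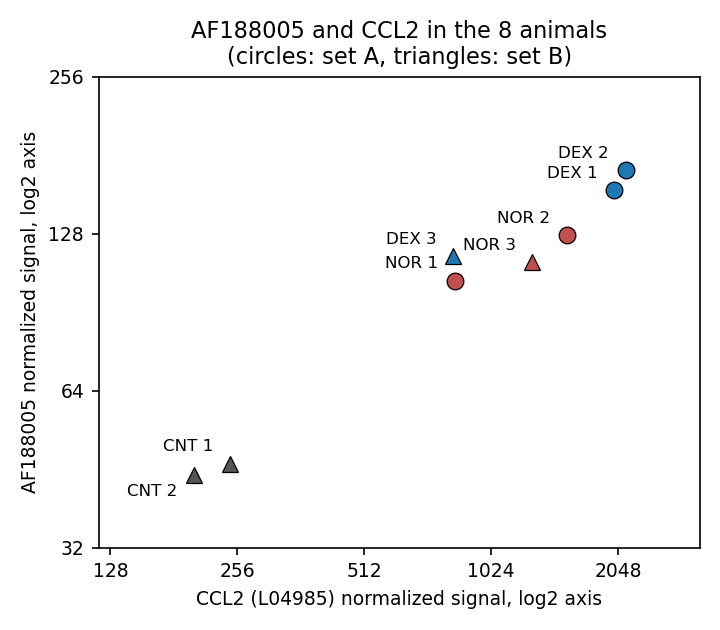
Normalized signal of AF188005 against that of CCL2 (L04985) in the 8 animals, both on log2 axes. Each point is 1 animal, and the 2 controls lie apart at the lower left (CCL2 at 246 and 201). DEX replicates 1 and 2 are highest for both, whereas DEX replicate 3 is level with NOR replicate 1 for CCL2.

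11βHSD was set beside 6 inflammatory genes on which active glucocorticoids are known to act, in most cases as repressors. For CCL2 and CXCL1 the known effects of dexamethasone are mixed. All were taken from the study's own list of up-regulated genes and represented by 7 features. The list was chosen on these arrays and is therefore not independent evidence of a rise. In NOR against CNT, 3 of the 7 features were called higher (1.34% of all features were) and 0 lower, with a median log2 fold change of 1.252 against 0.014 over all features. The called ones were CCL2, the cytokine interleukin-1β (IL-1β) and the cytokine tumor necrosis factor alpha (TNF-α). The features of the neutrophil chemokine CXCL1, of the prostaglandin-forming enzyme cyclooxygenase-2 (COX-2) and of the T cell chemokine CCL5, the last with 2 features, did not pass. In DEX against CNT 3 of the 7 were called higher, namely CCL2, TNF-α and CXCL1, against 0.957% of all features. A term for the array set changed these counts to 4 of 7 in NOR and 2 of 7 in DEX, where it called 2.0% and 1.38% of all features.

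In DEX against NOR, 0 of these 7 features were called, and the median log2 fold change was -0.29 against -0.0013 over all features. The list was selected for high NOR signals on these same arrays. Lower values in DEX than in NOR, in the list or in its members, are therefore not independent evidence of a fall. IL-1β had a log2 fold change of -0.76 (SE 0.29), with 278, 542 and 316 in NOR and 261.8, 250.1 and 150.3 in DEX, so that all 3 DEX animals lay below all 3 NOR animals (2.81% of all features did). TNF-α had -0.44, with 56.797, 48.4 and 50.6 in NOR and 49.2, 45.7 and 25.01 in DEX. COX-2 had -0.29, and the CCL5 features -0.35 and -0.18. CCL2 and CXCL1, at 0.37 and 0.63, lay on the same side as AF188005. Within the sets the list split. In set A, DEX was at least 25% higher for 2 of the 7 features and at least 20% lower for 1 (2.72% of all features were higher there and 2.86% lower). In set B, 1 was higher and 6 were lower by these limits, where 14.6% of all features were higher and 14.6% lower. The medians were 0.25 and -1.02.

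Among the 41 other features matched to the study's genes up-regulated by the normal electrode, DEX was at least 25% higher for 5 and at least 20% lower for 14, where 3.4% of all features were higher and 3.26% lower. The sets differed in these counts. In set A, with 2 animals per electrode, 10 were higher and 4 were lower, with a median of 0.016, where 2.72% of all features were higher and 2.86% lower. In set B, with 1 animal per electrode, 1 was higher and 33 were lower, with a median of -0.66, where 14.6% of all features were higher and 14.6% lower. The DEX-NOR difference of AF188005 in set B, 0.036, was exceeded by 3 of the 41, those of CXCL1, the sodium/calcium exchanger NCX1 and a C4b-binding protein alpha-chain feature. Its difference in set A, 0.49, was exceeded by 5, those of CCL2, CXCL1 and the 3 Fc-gamma receptors. These counts describe a list that was itself selected on these arrays, and no test of 11βHSD against the list was made.

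**Figure D3:**
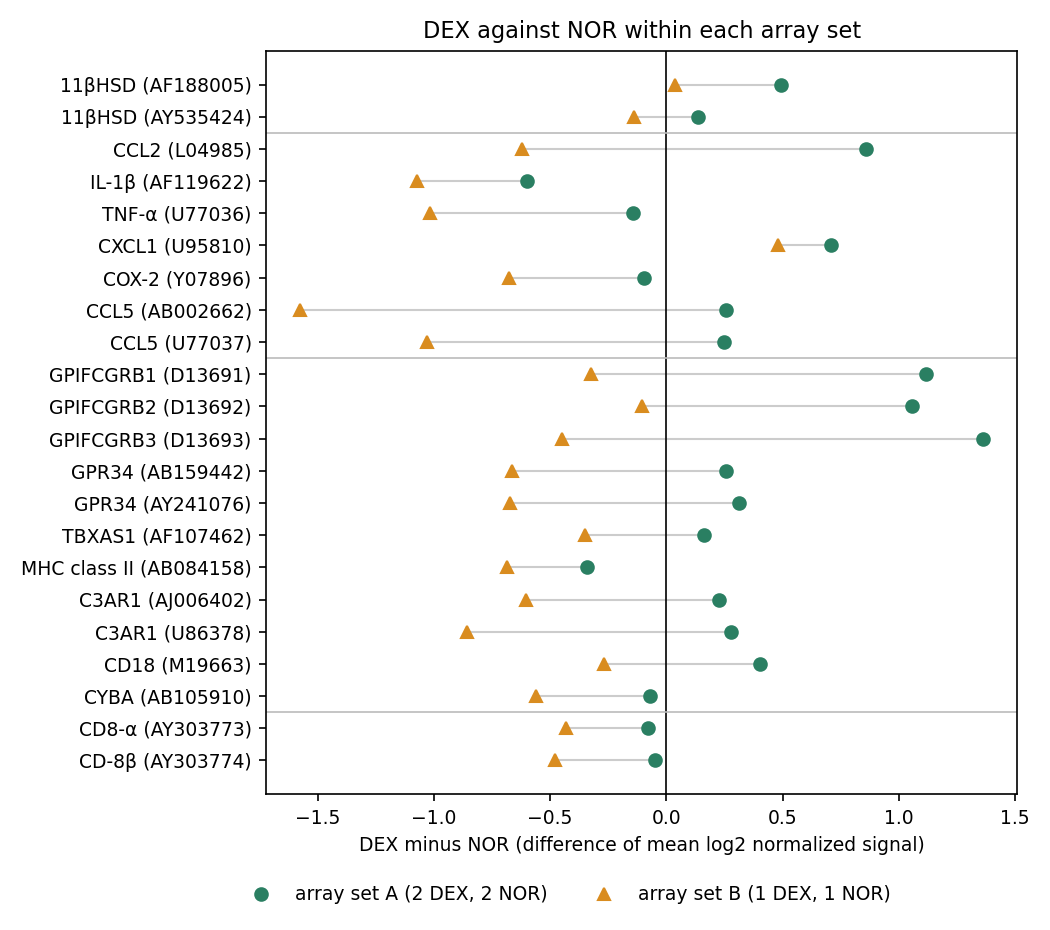
Difference of mean log2 normalized signal, DEX minus NOR, within array set A (circles, 2 animals per electrode) and array set B (triangles, 1 animal per electrode) for both 11βHSD features, the inflammatory genes, the myeloid markers and the T cell markers, separated by gray lines. AF188005 lies at 0.49 and 0.036, while most triangles of the other genes lie below 0 and IL-1β is below 0 in both sets.

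Since 11βHSD type 1 is also expressed by macrophages, leukocyte markers were measured beside it. Whether their signals came from cells that had entered the tissue or from resident cells was not tested. The myeloid markers were 11 features of 9 genes, among them the 3 Fc-gamma receptors, the complement C3a receptor C3AR1, the integrin listed as CD18 and the NADPH oxidase subunit CYBA. The calls against CNT covered 7 of the 11 features for NOR and 7 for DEX, with median log2 fold changes of 1.2497 and 1.20, where 1.34% and 0.957% of all features were called. The Fc-gamma receptors, the receptor GPR34 and the thromboxane synthase TBXAS1 passed in both comparisons. MHC class II passed only in NOR and CD18 only in DEX, and C3AR1 and CYBA passed in neither. A term for the array set gave 9 and 8, where it called 2.0% and 1.38% of all features. The summed signal of the 11 features was 7074 to 7479 in CNT, 13475 to 23141 in NOR and 16235 to 20525 in DEX. Of the T cell markers CD8-α and CD-8β, both were called higher in NOR and 1, CD8-α, in DEX, against the same shares of all features. CD-8β had a log2 fold change of 0.90 in DEX against CNT, under 2-fold. Their summed signal was 92.4 to 116.7 in CNT, 233 to 265 in NOR and 194 to 257 in DEX. None of these markers was at 0 in any group mean. They were taken from the study's list, all 13 features had higher means in NOR and DEX than in CNT, as 11βHSD did, and their part in the 11βHSD difference was not tested. Between the electrodes 0 of the 11 myeloid features were called, with a median of 0.28 in set A and -0.56 in set B.

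The position of AF188005 was followed through all settings. Against CNT its log2 fold change lay between 1.07 and 1.43 in NOR and between 1.43 and 1.855 in DEX over 18 alternative limma settings. Median centring gave the lowest value in both. In DEX against NOR the value lay between 0.23 and 0.50, above 0 in all 18, and the adjusted p lay between 0.180 and 1. AY535424 lay between -0.04 and 0.11 in DEX against NOR, with the value below 0 where NOR replicate 1 was left out.

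**Figure D4:**
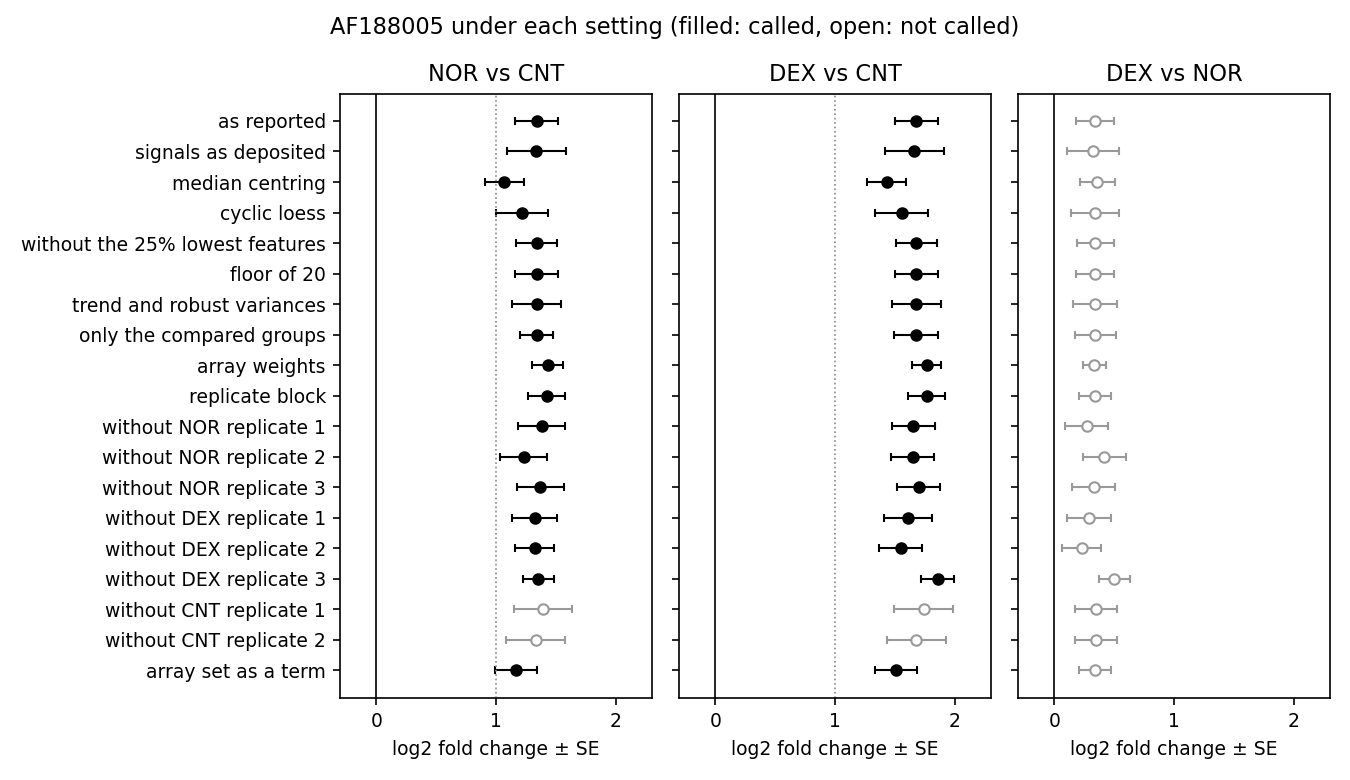
Log2 fold change of AF188005 with its SE (whiskers) in NOR against CNT, DEX against CNT and DEX against NOR, as reported and under each of 18 alternative limma settings. Filled points are called, open points are not, and the dotted line marks 2-fold. The calls against CNT are lost only where a control animal is left out, and no DEX against NOR value is called.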

How the data were processed

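Total RNA of 8 cochleae was converted to double-stranded cDNA, and this cDNA, labeled with Cy3, was put on 1-color NimbleGen guinea pig arrays, 1 array per animal. Agilent software read the scans. The study treated different probes of a gene as a single gene, whereas in the deposited signals some genes, such as 11βHSD, keep separate features. The files deposited by the authors give, per array, a linear intensity for each of 13269 features. The submitters' processing notes name RMA, with no version or role. Whether RMA was run on all arrays together is not given in the sources used here.

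Signals were quantile-normalized on the log2 scale. All features were fitted in limma with 1 mean per group (prior degrees of freedom 2.92), with Benjamini-Hochberg adjustment over all of them. A call needed an adjusted p under 0.05 and, against CNT, a change of 2-fold or more. Other study genes were matched to features through their group averages, and 47 of 49 matched, 42 to a single feature. The genes named were the 11βHSD features, the listed genes, and the 2 features and 3 study genes most like AF188005. The gene, lists and tests were chosen with earlier results of these data known.

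Alternatives changed the scaling (none, median centring, cyclic loess), the features (25% lowest left out, a floor of 20), the variances (trend and robust, array weights), the animals (each left out, only the groups compared) and the model (replicate block). Ratios of linear means and the methods' own test were also computed. The array set was added after the values were seen. Arrays were joined to a set where they shared at least 150 values. Residuals of NOR and DEX animals with the same number correlated at 0.221, 0.360 and 0.526, above the limit of 0.1 for a pairing by number. The labels name no shared litter or batch, and animals of different number in the same set correlated at 0.205 and 0.328. The procedure was tested on simulated data. Software was R 4.3.3 with limma 3.58.1, and Python 3.11.15 with pandas 2.3.3 and scipy 1.17.1 for summaries and matplotlib 3.10.9 for plots. Arrays have no sequencing depth, and their number limits the precision.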

Additional observations from a re-analysis of the deposited data

How the results depend on the processing

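AF188005 kept its direction in all 3 comparisons under every alternative run. Its calls against CNT were lost only without a control animal and with the methods' t-test after Benjamini-Hochberg adjustment. That t-test, on the linear signals as deposited, gave log2 ratios of 1.35 for NOR (p = 0.0151, adjusted 0.158) and 1.70 for DEX (p = 0.0404, adjusted 0.249), where the exact permutation p was 0.2 in both. With each animal left out in turn, AF188005 lay between 1.23 and 1.39 for NOR against CNT, between 1.55 and 1.855 for DEX against CNT and between 0.23 and 0.50 for DEX against NOR. In the same order AY535424 lay between 1.16 and 1.44, between 1.20 and 1.49 and between -0.04 and 0.11, and the average of both between 1.22 and 1.41, between 1.43 and 1.68 and between 0.15 and 0.35. Median centring gave AY535424 0.90 for NOR and 0.98 for DEX against CNT, under 2-fold, and the average 1.00 and 1.26, and cyclic loess gave AY535424 1.11 and 1.16. The median of all features in NOR against CNT was 0.15 before scaling, 0.01 after quantile normalization and -0.11 after median centring. Within array set B, AF188005 was 1.36 for DEX against CNT and 0.036 for DEX against NOR, AY535424 -0.14 for DEX against NOR, and the average 1.31 and -0.035. The replicate block gave AF188005 1.42 (adjusted p = 0.00974) for NOR, 1.76 (adjusted p = 0.00938) for DEX and 0.34 (adjusted p = 0.968) between the electrodes, so that it changed no call of this feature. Over all features it moved the number called higher in DEX against CNT from 127 to 214. Other settings that moved such counts by more than 1.5 times were the signals as deposited (295 for NOR against CNT), the floor of 20 (114 for NOR and 83 for DEX) and array weights (1.76% of all features in place of 0.957% for DEX against CNT, and 3 in place of 0 for DEX against NOR). Without 1 animal they fell to as low as 40 for NOR and 12 for DEX. Causes of these shifts were not tested. A lone remaining control was taken to have the spread of the other animals.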
